A study of Homo sapiens with 6 samples.

Results

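The expression of 9 genes that make, carry and break down retinoic acid was examined in UE7T-9 cells, a human bone marrow mesenchymal stem cell line, with and without knockout of SRRM4, a splicing factor known for neuronal microexons. The genes were chosen by name: RDH10, DHRS3, ALDH1A1, ALDH1A2 and ALDH1A3 of the synthesis steps, STRA6 of retinol uptake, CRABP1 and CRABP2 of retinoic acid binding, and CYP26B1 of breakdown. They are 9 of the 58735 genes in the count table, and 6 of them had enough reads to be among the 15341 genes tested. Libraries came from 3 samples of control UE7T-9 cells, labelled WT, and 3 samples of the SRRM4 KO line. All were maintained in DMEM with fetal bovine serum and penicillin/streptomycin. The KO line was made with a lentiviral CRISPR vector, selected with puromycin and grown from limiting dilution as 1 clone, in which the study describes SRRM4 protein as lowered and not absent. The methods and labels do not state whether the control cells carried an empty vector, although the study's discussion names infection with lentivirus as a possible influence on them. With 1 clone the effect of SRRM4 loss and the properties of that clone cannot be told apart. The labels do not say whether the 3 samples of a group were separate cultures, so p-values measure the spread between these samples, which may be technical.

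Retinoic acid is made from retinol, the alcohol form of vitamin A, in a pair of oxidations. RDH10 turns retinol into retinal, DHRS3 turns retinal back into retinol, and the ALDH1A dehydrogenases oxidize retinal to retinoic acid. CRABP2 carries retinoic acid to its nuclear receptors, CRABP1 holds it in the cytoplasm, and CYP26 enzymes oxidize it for removal. The receptors, RAR paired with RXR, bind DNA and regulate target genes, among which CYP26 enzymes, DHRS3 and CRABP2 are known examples. In mesenchymal cells the balance of these steps is known to bear on limb, skeletal and fat cell development.

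Depth was even, at 21496117 to 23868323 counts per library. At this depth 3 counts, taken as the floor of detection, equal 0.123 to 0.139 CPM, the count scaled to a common library size after normalization. SRRM4 itself had 0 counts in all 6 libraries, so its transcript level did not check the labels. Control replicate 1 differed more from the other control libraries than those did from each other (chi-square per degree of freedom of 21.2 and 21.7 against 5.47). Values without it are given for DHRS3, ALDH1A3 and RXRA. Stromal markers were detected in both groups, with all 10 tested, 6 lower and 1 (CD44) higher in the KO line. Of their summed level of 45458 to 49847 CPM in control and 18592 to 20770 CPM in KO cells, 3 collagens held 42748 to 47117 and 16151 to 18363 CPM, and the other 7 markers held 2635 to 2730 and 2342 to 2440 CPM. Among these 7, LEPR, THY1 and PDGFRB were called lower (log2 fold changes -3.49, -2.43 and -2.14), and ENG (-0.34) was lower past the adjusted p alone. CD44 (1.39), NT5E (0.52) and VIM (0.36) were higher past the adjusted p. Of the haematopoietic markers PTPRC had 0 to 2 counts and CD3E had 0, ITGAM had 5 to 14 counts in control and 0 in KO cells, and CD14 (324 to 392 counts) and CD34 (66 to 93 counts) held nearly all of their sum of 20.3 to 21.4 CPM in control and 17.9 to 20.96 CPM in KO cells. The summed level of 5 endothelial markers was 22.5 to 26.1 CPM in control and 4.43 to 5.86 CPM in KO cells, through lower TEK and KDR, while PECAM1 (0 to 3 counts) and CDH5 (0 to 1 count) lay at the floor. Epithelial markers summed to 1.11 to 2.78 CPM in control and 0.404 to 0.575 CPM in KO cells. The part of these marker shifts in the results on retinoic acid genes was not tested, and in bulk RNA a smaller share of expressing cells and less RNA per cell cannot be told apart.

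Among the retinoic acid genes, CRABP2 was higher and CYP26B1 was lower in the SRRM4 KO line. DHRS3 was higher and ALDH1A3 was lower by less than the fold change asked for a call, while RDH10 and ALDH1A2 passed no test. ALDH1A1, CRABP1 and STRA6 had no reads, or nearly none, in either group. Calls required a log2 fold change beyond 1 and, in edgeR's quasi-likelihood test, p under 0.05 after Benjamini-Hochberg adjustment over all genes tested. By this rule 1 of the 6 tested genes was called higher, beside 5.45% of all genes tested, and 1 was called lower, beside 7.14%. With the adjusted p alone 2 were higher and 2 were lower, where the backgrounds were 20.7% and 20.9% (41.6% in either direction). The CPM of the groups did not overlap for 2 higher and 2 lower genes, where 25.9% of all genes tested did not overlap in each direction and 51.8% in either. The median log2 fold change of the 6 genes was -0.09, and that of all genes tested was -0.01.

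**Figure D1:**
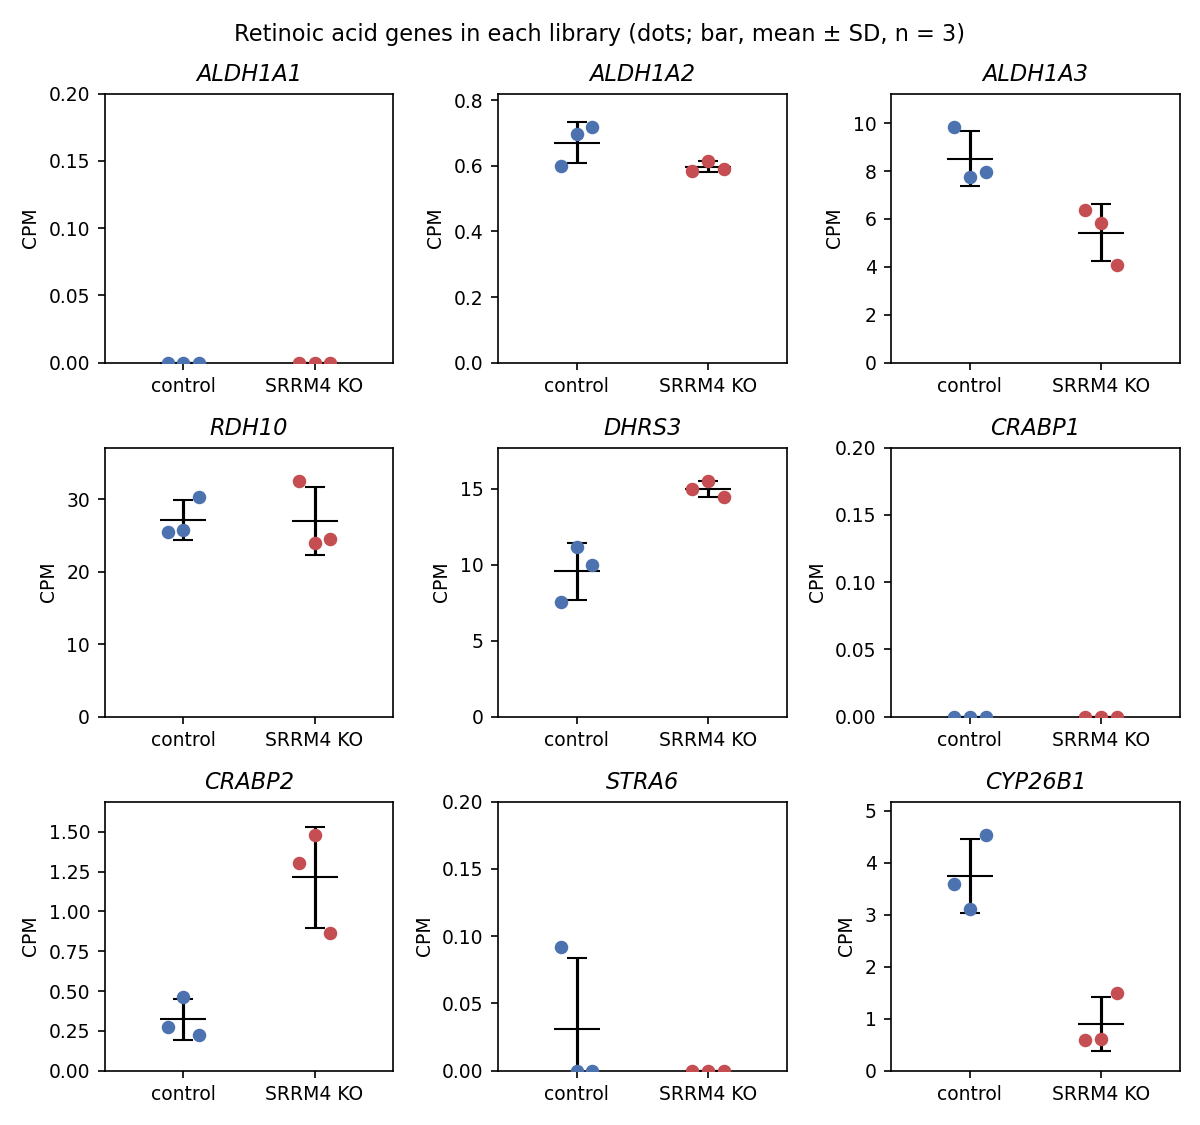
Level of each of the 9 genes in CPM (vertical axis, its own scale from 0 in each panel) in the 3 control and the 3 SRRM4 KO libraries (dots), with the mean and SD of each group as bar and whisker. The control and KO dots do not overlap for ALDH1A3, DHRS3, CRABP2 and CYP26B1, overlap for RDH10 and ALDH1A2, and lie at or near 0 for ALDH1A1, CRABP1 and STRA6.

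Retinol enters cells through STRA6, the membrane receptor for retinol bound to its plasma carrier. STRA6 (chromosome 15, 74179466 to 74212267, minus strand; coordinates throughout are those of the count table, in which each gene has the start and end of GENCODE 29 on GRCh38) had 2 counts in control replicate 1 and 0 in the other 5 libraries. It was too low to be tested, and a difference between the groups was not detectable at this depth.

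RDH10, the enzyme of the first oxidation, was well detected and did not pass the test. RDH10 (chromosome 8, 73294612 to 73325281, plus strand) had 551, 554 and 676 counts in control replicates 1 to 3 and 723, 584 and 540 counts in KO replicates 1 to 3. The groups overlapped, and KO replicate 1 held the highest count of all. Its level was 27.1 ± 2.74 CPM in control and 27.0 ± 4.74 CPM in KO cells (SD, n = 3 each), a log2 fold change of -0.01 (SE 0.136, 95% interval -0.30 to 0.28, adjusted p = 0.968, edgeR's quasi-likelihood test). The interval leaves out a change of 2-fold in either direction. The sign of so small a value turned with single libraries, to 0.08 without control replicate 3, 0.06 without KO replicate 2 and 0.05 without KO replicate 3.

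DHRS3, the enzyme of the reverse step, was higher in every KO library than in any control library. DHRS3 (chromosome 1, 12567910 to 12617731, minus strand) had 163, 241 and 223 counts in control and 333, 377 and 318 counts in KO cells. The KO libraries lay close together, and control replicate 1 was the lowest of the control libraries. Its level rose from 9.56 ± 1.87 to 14.96 ± 0.514 CPM (SD, n = 3 each), a log2 fold change of 0.65 (SE 0.159, 95% interval 0.31 to 0.99, adjusted p = 0.00427, edgeR's quasi-likelihood test) or 1.56-fold. With each library left out in turn the log2 fold change was 0.50 to 0.77, and the adjusted p stayed under 0.05 in 6 of 6 such fits. The lowest value, 0.50, was that without control replicate 1 (adjusted p = 0.00898, edgeR's quasi-likelihood test). Its exons are shared with no other gene of the annotation.

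The ratio of DHRS3 to RDH10 sets the reducing beside the oxidizing transcript within a library, so that it does not depend on how libraries are scaled. As CPM per kilobase of exon, the log2 ratio was -0.95, -0.39 and -0.79 in control and -0.31, 0.18 and 0.05 in KO libraries. Transcripts of RDH10 thus exceeded those of DHRS3 in each control library, and the KO libraries lay near equal levels. The mean log2 ratio was -0.71 ± 0.287 in control and -0.03 ± 0.252 in KO cells (SD, n = 3 each), and the groups did not overlap. No test was run on this ratio.

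Of the 3 retinal dehydrogenases, ALDH1A3 gave most of the reads, and it was lower in the KO line. ALDH1A3 (chromosome 15, 100877714 to 100916626, plus strand) had 213, 167 and 178 counts in control and 142, 142 and 90 counts in KO cells. All KO libraries lay below all control libraries, with KO replicate 3 the lowest. The level fell from 8.52 ± 1.14 to 5.43 ± 1.19 CPM (SD, n = 3 each), a log2 fold change of -0.65 (SE 0.199, 95% interval -1.07 to -0.22, adjusted p = 0.0165, edgeR's quasi-likelihood test) or 1.57-fold. Without KO replicate 3 the log2 fold change was -0.49 and the adjusted p 0.0689, and over all left-out libraries the log2 fold change was -0.78 to -0.49. Without control replicate 1 the log2 fold change was -0.53 (adjusted p = 0.0484, edgeR's quasi-likelihood test). Of its 5772 exonic bases 28.6% are shared with other genes, mainly with the antisense gene AC015712.2, which had 33, 37 and 43 counts in control and 4, 18 and 13 in KO cells. In libraries without strand, reads from the 1585 bases shared with this gene cannot be told apart.

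The other retinal dehydrogenases were rare. ALDH1A2 (chromosome 15, 57953424 to 58497866, minus strand), the main such enzyme of the embryo, had 13, 15 and 16 counts in control and 13, 15 and 13 counts in KO cells. With 0.671 ± 0.063 CPM in control and 0.597 ± 0.017 CPM in KO cells (SD, n = 3 each) its log2 fold change was -0.17 (SE 0.498, 95% interval -1.23 to 0.90, adjusted p = 0.819, edgeR's quasi-likelihood test). At this depth the interval reaches beyond 2-fold lower, so a change of that size could not be detected reliably. ALDH1A1 (chromosome 9, 72900662 to 73080442, minus strand), the enzyme known as a marker of many stem cell populations, had 0 counts in all 6 libraries, which allows at most 3 counts or 0.123 to 0.139 CPM in a library by counting error alone. Within the per-length sum of the 3 enzymes, ALDH1A3 made up 96.1, 94.3 and 94.3% in control and 94.2, 93.4 and 91.2% in KO libraries. Its share per length was 94.9 ± 1.01% in control and 92.9 ± 1.57% in KO cells (SD, n = 3 each), and by raw counts 92.6 ± 1.44% and 89.8 ± 2.19%.

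CRABP2, the carrier that brings retinoic acid to its receptors, rose in the KO line from a level near the floor. CRABP2 (chromosome 1, 156699606 to 156705816, minus strand) had 6, 10 and 5 counts in control and 29, 36 and 19 counts in KO cells. Each KO library held more reads than any control library. Its level was 0.322 ± 0.126 CPM in control and 1.21 ± 0.317 CPM in KO cells (SD, n = 3 each), a log2 fold change of 1.90 (SE 0.531, 95% interval 0.77 to 3.04, adjusted p = 0.00930, edgeR's quasi-likelihood test) or 3.74-fold. Leaving out each library in turn gave 1.70 to 2.25 with adjusted p from 0.0137 to 0.0494. A test of whether the change exceeds 2-fold was not passed (adjusted p = 0.211, edgeR's glmTreat), and the reads per library are few. CRABP1 (chromosome 15, 78340324 to 78348230, plus strand), the other cellular carrier, had 0 counts in all 6 libraries, so that a CRABP2 to CRABP1 ratio cannot be given.

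CYP26B1, which oxidizes retinoic acid for removal, fell in the KO line. CYP26B1 (chromosome 2, 72129238 to 72148038, minus strand) had 78, 67 and 101 counts in control and 13, 15 and 33 counts in KO cells. All KO libraries lay below all control libraries, and KO replicate 3 had 2.57 times the CPM of the lowest KO library. The level fell from 3.74 ± 0.720 to 0.900 ± 0.520 CPM (SD, n = 3 each), a log2 fold change of -2.06 (SE 0.385, 95% interval -2.88 to -1.24, adjusted p = 0.000515, edgeR's quasi-likelihood test) or 4.17-fold. Leaving out each library in turn gave -2.64 to -1.84, past the threshold in 6 of 6 fits. The change also passed the test against 2-fold (adjusted p = 0.0300, edgeR's glmTreat).

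The other CYP26 genes were lowly expressed. CYP26C1 had 12, 18 and 30 counts in control and 2, 0 and 3 counts in KO cells, and it was called lower, at least 6.93-fold against 3 counts per library. CYP26A1, the family member most readily induced by retinoic acid, had 3, 3 and 7 counts in control and 8, 0 and 0 in KO cells and was not tested. FABP5, a carrier that can bring retinoic acid to another class of nuclear receptor, was at 5.48 ± 0.756 CPM in control and 6.70 ± 0.973 CPM in KO cells (log2 fold change 0.29, SE 0.193, adjusted p = 0.251, edgeR's quasi-likelihood test).

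The sequences upstream of the 2 called genes are shown because DR elements, direct repeats of a hexamer bound by RAR and RXR, are the textbook link from retinoic acid to gene expression. They come from RefSeq (GRCh38.p14), on the strand of the gene, from the first base of the promoter window, 250 bases before the start site, to the last base before the gene's first exon in GENCODE 29. CRABP2 is at chr1:156705817-156706034 and CYP26B1 at chr2:72148039-72148112, both on the minus strand, and capitals mark a receptor hexamer.
CRABP2: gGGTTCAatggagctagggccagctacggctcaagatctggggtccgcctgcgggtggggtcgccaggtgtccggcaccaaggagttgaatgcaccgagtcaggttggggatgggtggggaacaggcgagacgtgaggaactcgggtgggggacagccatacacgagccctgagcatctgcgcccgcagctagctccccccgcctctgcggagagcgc
CYP26B1: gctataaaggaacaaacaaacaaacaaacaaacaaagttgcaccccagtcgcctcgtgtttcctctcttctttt

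Promoter windows of 8 of the 9 genes, 15 windows in all from 250 bases before to 50 bases after a start site, were searched on both strands for 4 hexamers. AGGTCA was found in 13.8% of all 35116 RefSeq promoter windows, GGGTCA in 14.1%, AGTTCA in 10.4% and GGTTCA in 8.62%, and at least 1 of them in 38.6%. These letters are shared by sites of several nuclear receptors. Of the 15 windows 6 held at least 1 hexamer, among them that of CRABP2 with GGTTCA at position -249, and the window of CYP26B1 held none. None of the 15 windows held a direct repeat of these hexamers spaced by 1, 2 or 5 bases, which 0.131%, 0.0399% and 0.0883% of all windows held. The searched stretches are short, and a match is a description of the letters and not a site.

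Levels of the genes can be compared with each other as CPM per kilobase. In control cells the order was RDH10 at 5.10 ± 0.514, DHRS3 at 3.15 ± 0.615, ALDH1A3 at 1.48 ± 0.197, CYP26B1 at 0.747 ± 0.144, CRABP2 at 0.292 ± 0.115 and ALDH1A2 at 0.0778 ± 0.00726 CPM per kilobase (SD, n = 3 each). No 2 neighbours in this order overlapped between libraries. In KO cells RDH10 at 5.07 ± 0.891 and DHRS3 at 4.93 ± 0.169 overlapped, as did CRABP2 at 1.104 ± 0.288 and ALDH1A3 at 0.941 ± 0.207, followed by CYP26B1 at 0.179 ± 0.104 and ALDH1A2 at 0.0692 ± 0.00197. CRABP2 and CYP26B1 thus exchanged their order. Over both groups RDH10 and DHRS3 stood at the 54.0 and 48.6 percentile of the genes tested by CPM per kilobase, ALDH1A3 at 26.2, CRABP2 at 18.4, CYP26B1 at 13.5 and ALDH1A2 at 0.841.

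**Figure D2:**
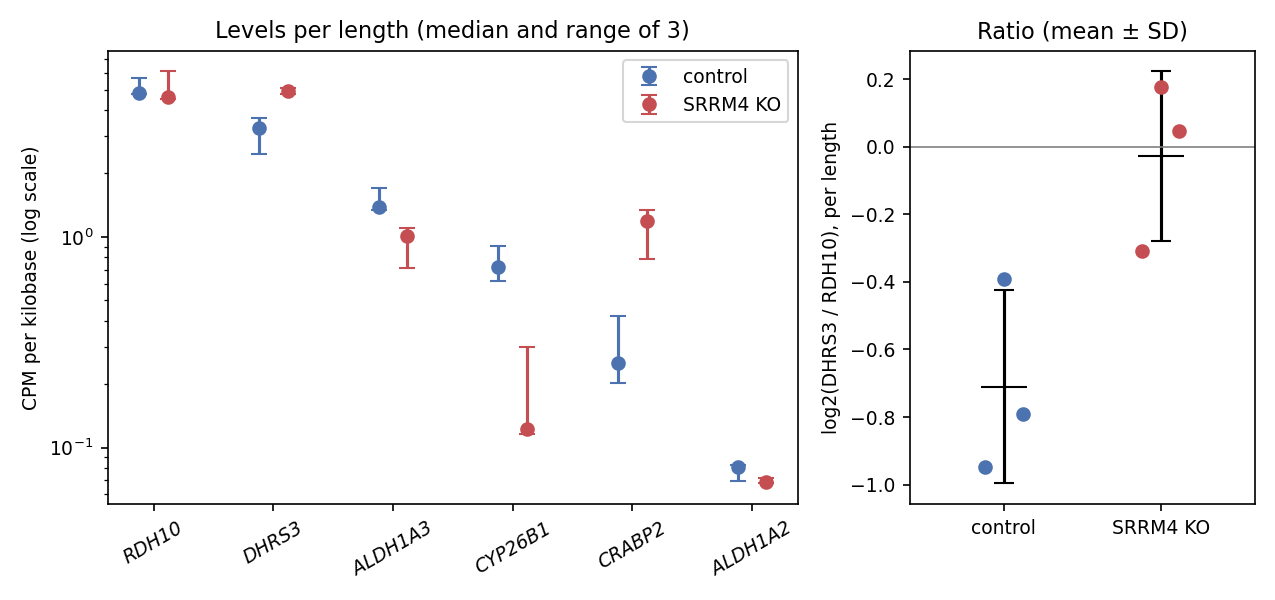
Left, CPM per kilobase (log scale) of the 6 tested genes in control and SRRM4 KO cells, as the median and range of 3 libraries. Right, the log2 ratio of DHRS3 to RDH10 per length in each library with mean and SD, where the KO libraries (-0.31 to 0.18) lie above the control libraries (-0.95 to -0.39).

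Beyond these genes, 69 other genes of the retinoid pathway were listed, of which 39 were tested, 1 was called higher and 4 were called lower, beside 5.45% and 7.14% of all genes tested. Of 15 genes for retinol uptake, binding and storage 8 were tested and 2 were called lower. LIPE, a lipase that also acts on retinyl esters, was higher under the fold threshold (log2 fold change 0.90, adjusted p = 0.0233, edgeR's quasi-likelihood test) and passed in 3 of the 6 fits that left out a library. RBP7, a cellular retinol binding protein, had 18, 32 and 13 counts in control and 3, 0 and 3 in KO cells, at least 7.35-fold lower against 3 counts per library. PNPLA4, a lipase with retinyl ester activity, had 168, 204 and 176 counts in control and 6, 1 and 0 in KO cells (log2 fold change -6.28, SE 0.462, adjusted p = 4.68e-08, edgeR's quasi-likelihood test). Its size is uncertain with so few KO reads, at -8.27 without KO replicate 1 and -5.75 without KO replicate 3. The median log2 fold change of this list was -0.46.

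Of 19 further retinol and retinal enzymes 8 were tested, with a median of -0.14, and HSD17B6, a dehydrogenase of steroids and retinol, was the 1 gene called. HSD17B6 had 24, 68 and 63 counts in control and 5, 22 and 24 in KO cells (log2 fold change -1.67, SE 0.530, adjusted p = 0.0198, edgeR's quasi-likelihood test). Control replicate 1 and KO replicate 3 had the same count and nearly the same CPM (1.11 and 1.09). The call was lost in 3 of the 6 fits that left out a library (control replicates 2 and 3, and the KO library numbered 1), with an adjusted p of up to 0.0887, and under glmTreat. Under the fold threshold 4 more genes of the list, named after their values were seen, passed the adjusted p. AOX1, an oxidase of aldehydes that include retinal, was at a log2 fold change of 0.57 and RDH11, a retinal reductase, at 0.37, while ADH5, a broadly expressed alcohol dehydrogenase, was at -0.46 and RDH14 at -0.39. The first 3 passed in 6 of the 6 fits with a library left out, and RDH14 in 2, with an adjusted p of up to 0.156.

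None of the 6 receptors was called. RARG was at 44.7 ± 4.10 CPM in control and 26.7 ± 2.98 CPM in KO cells (SD, n = 3 each), a log2 fold change of -0.74 (SE 0.116, adjusted p = 0.000104, edgeR's quasi-likelihood test). RARA was at 35.5 ± 7.36 and 26.9 ± 1.00 CPM, with a log2 fold change of -0.40 (SE 0.137, adjusted p = 0.0283), and it passed the adjusted p in 1 of the 6 fits that left out a library, with up to 0.176 without control replicate 3. Over these 6 fits the log2 fold change of RARA was -0.55 to -0.25. RXRA (log2 fold change -0.28, SE 0.110, adjusted p = 0.0546), RXRB (-0.10, SE 0.106, adjusted p = 0.491) and RARB (-0.09, SE 0.50, adjusted p = 0.904) did not pass, and RXRG had 0 counts in all 6 libraries. RXRA lay near the threshold and passed in 2 of the 6 fits that left out a library, with an adjusted p of 0.00378 without control replicate 1 and 0.0313 without KO replicate 2. It also passed with upper-quartile normalization (0.0357), without a filter (0.0392), with at least 10 counts in every library (0.0405) and among protein-coding genes only (0.0413). It did not pass with DESeq2 size factors (0.0526), with the replicate number as a block (0.0598) or by DESeq2's Wald test (0.0611). Its highest adjusted p was 0.209, without KO replicate 3. The tested genes of chromosome 9, where RXRA lies, had a median log2 fold change of -0.24. RARB, itself a known retinoic acid target, was at 0.854 ± 0.324 CPM in control and 0.802 ± 0.254 CPM in KO cells. Of 9 receptor coregulators 8 were tested and none was called, with a median log2 fold change of -0.11. Under the fold threshold NCOA1 (-0.32, adjusted p = 0.0245) and CREBBP (-0.25, adjusted p = 0.0282, edgeR's quasi-likelihood test) were lower, and none was higher past the adjusted p. Tested genes within 5 Mb of them had medians of -0.19 and -0.24.

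Of 20 textbook retinoic acid targets 10 were tested, 1 was called and their median log2 fold change was -0.08. TGM2, a transglutaminase that cross-links proteins, had 89, 84 and 124 counts in control and 1546, 1709 and 1311 in KO cells. Its level rose from 4.52 ± 0.904 to 66.4 ± 5.91 CPM (SD, n = 3 each; log2 fold change 3.87, SE 0.146, adjusted p = 4.17e-11, edgeR's quasi-likelihood test). Of its exonic bases 4.90% are shared with RPRD1B on the opposite strand. The other 9 tested targets lay between the fold thresholds. Of these, named after their values were seen, MEIS2 (log2 fold change 0.39) was higher and MEIS1 (-0.57), NR2F1 (-0.43) and RARRES3 (-0.55) were lower past the adjusted p. MEIS1 passed it in 6 of the 6 fits that left out a library, NR2F1 in 4, and MEIS2 and RARRES3 in 2 each, with an adjusted p of up to 0.103, 0.151 and 0.164 for the latter 3 genes. MEIS1 lies on chromosome 2, and the tested genes within 5 Mb of it had a median log2 fold change of -0.27.

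**Figure D3:**
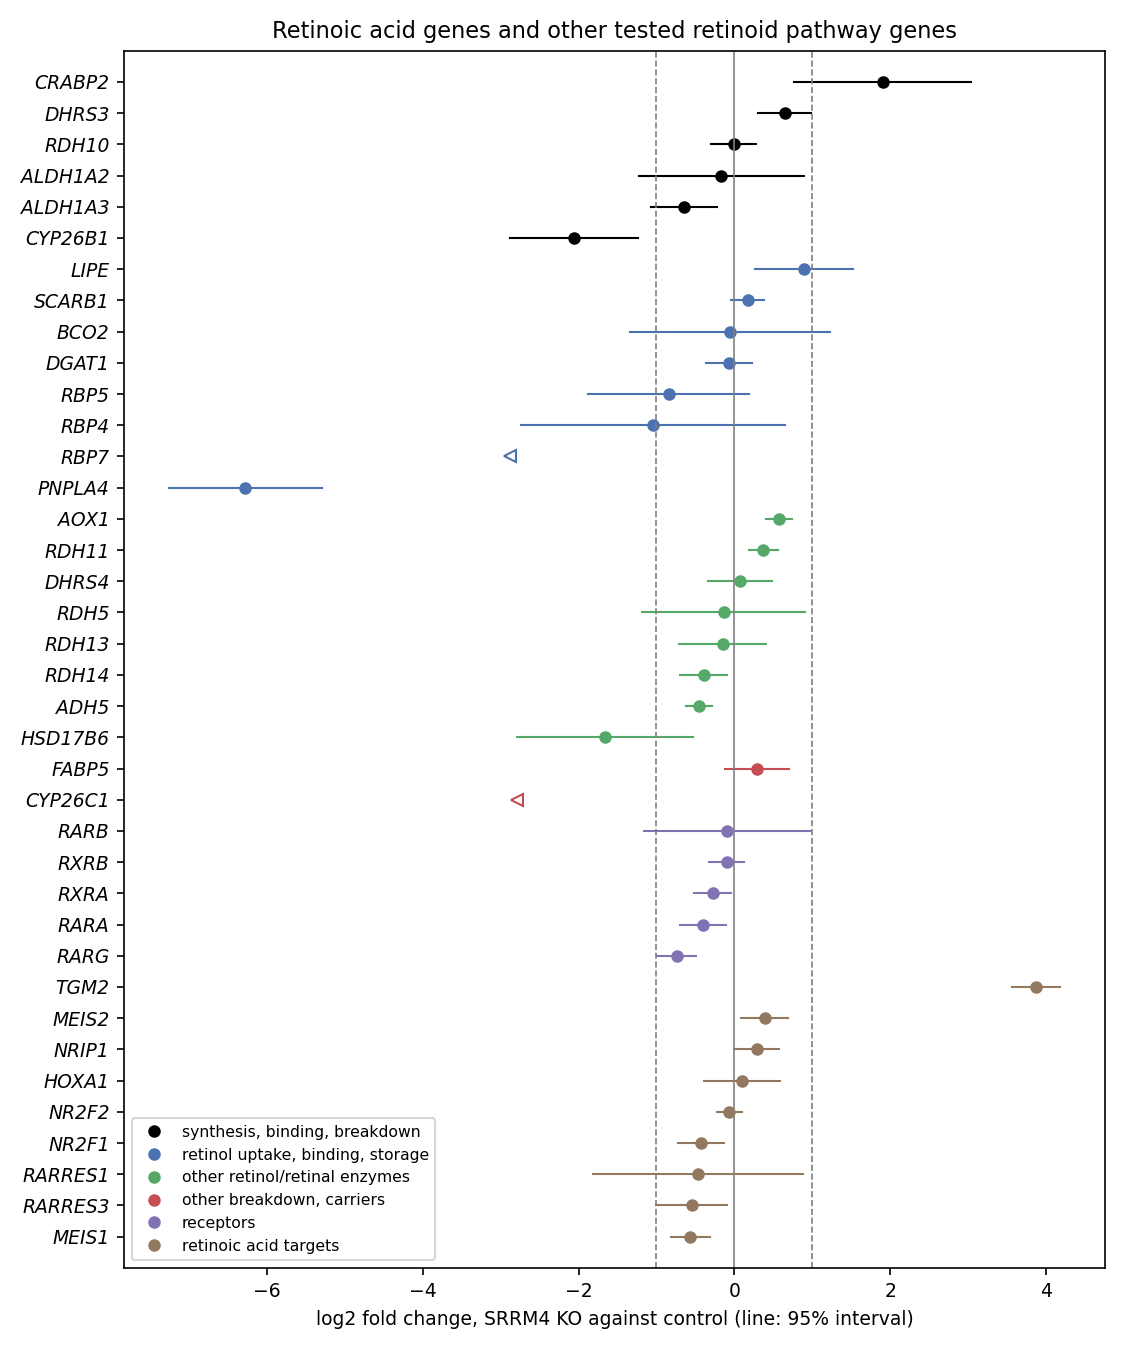
Log2 fold change of SRRM4 KO against control with its 95% interval for the 6 retinoic acid genes (black) and the other tested pathway genes by list (colours, receptor coregulators left out), with dashed lines at the fold threshold. Open triangles are bounds for RBP7 and CYP26C1, whose KO libraries hold 3 counts or fewer, and TGM2 (3.87) and PNPLA4 (-6.28, with 0 to 6 counts in KO libraries) lie farthest from 0.

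Whole chromosomes were also compared, since earlier results on these data had found chromosomes whose genes shifted together. The median log2 fold change of the 84 tested genes within 5 Mb of CYP26B1 was -0.20, and that of chromosome 2 was -0.25. Less the median of chromosome 2, the log2 fold change of CYP26B1 was -1.81, for which no test was run. For CRABP2 the median of 146 neighbours was 0.00 and that of the chromosome 0.04, and for DHRS3 they were 0.06 (99 genes) and 0.04. The 26 genes near ALDH1A3 had a median of 0.04, the 40 near ALDH1A2 of 0.07 and the 23 near RDH10 of -0.02.

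**Figure D4:**
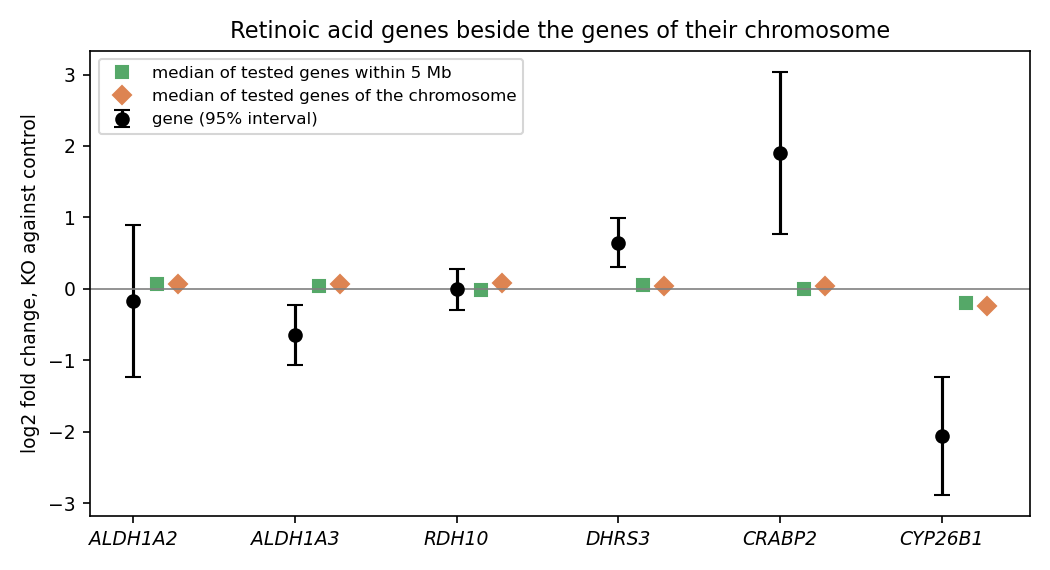
Log2 fold change (vertical axis, SRRM4 KO against control) of each of the 6 tested genes (dot, with its 95% interval as a whisker) beside the median of the tested genes within 5 Mb and of the whole chromosome. The medians lie between -0.25 and 0.08, while CRABP2 is at 1.90 and CYP26B1 at -2.06.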

How the data were processed

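RNA of UE7T-9 control cells and the SRRM4 KO line was sequenced as non-stranded mRNA-seq, 3 libraries per group, and samples were grouped by title and genotype. The values the authors deposited are counts of reads for each gene, not normalized. The submitters' processing notes name HISAT2 2.0.5, featureCounts 1.5.0-p3 and DESeq2; their settings, the genome build and the annotation are not given in the sources used here. All 58735 gene IDs were found in GENCODE 29 with the same start and end. How reads shared by overlapping genes were counted is not known.

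Counts were tested in R 4.3.3 with edgeR 4.0.16 (TMM, filterByExpr, glmQLFit and glmQLFTest, prior count 0.125) over 15341 genes with Benjamini-Hochberg adjustment. The standard error was the log2 fold change over the root of F. Fold changes against a group with 3 counts or fewer in each library are bounds against 3 counts per library. CPM per kilobase used the gene lengths of the table. Intervals and floors cover counting error or the spread between libraries only. The procedure was tested on simulated counts.

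The genes, lists and tests were chosen with earlier results of these data known. The genes named were the 9 retinoic acid genes, RARA, RARB, RARG, RXRA, RXRB, CYP26A1 and FABP5, and from each other list the called genes, at most 4 per direction. AOX1, ADH5, RDH11, RDH14, MEIS1, MEIS2, NR2F1, RARRES3, RXRG, LIPE, DHRS9, NCOA1, CREBBP and the markers and neighbouring genes were named after their values were seen. Some genes that the rule or the lists take are not reported here. The alternative settings were other scalings (DESeq2 size factors and upper quartile), another filter (none, or a minimum of 10 counts in each library), a block for the replicate number, other tests (DESeq2 1.42.0 and glmTreat), a call without the fold threshold, a fit on protein-coding genes, subtraction of each chromosome's median from the fold changes (the adjusted p left as it was), and each library left out. Promoter sequence was taken from RefSeq for 8 of the 9 genes, and RDH10 was not searched.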

Additional observations from a re-analysis of the deposited data

How the results depend on the processing

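CYP26B1 was called lower under each alternative run (log2 fold change -2.64 to -1.81, the latter less the chromosome's median with the adjusted p left as it was). CRABP2 kept its direction (1.70 to 2.25), but it was not called by glmTreat (1.90, adjusted p = 0.211) and was not tested with at least 10 counts in every library, so that under both settings 0 of the retinoic acid genes were called higher. Without the fold change threshold 2 were higher and 2 lower, with DHRS3 at 0.65 and ALDH1A3 at -0.65 past the test. By the adjusted p alone, 1 was higher with at least 10 counts in every library, and leaving out libraries gave 1 to 2 lower. RDH10 changed sign without control replicate 3 (0.0759), KO replicate 2 (0.06) and KO replicate 3 (0.05), with a range of -0.17 to 0.08 when each library was left out. Of the other pathway genes, 2 were higher without a filter and with DESeq2, where DHRS9 was added. Without the fold threshold 5 were higher and 13 lower of 39 tested, beside 20.7% and 20.9% of all genes tested. With at least 10 counts in every library 0 were lower, where the 4 called genes were not tested because of their low KO counts. By glmTreat 3 were lower, without HSD17B6. Leaving out each library gave 1 to 3 higher, with DHRS9 or LIPE added. Over all genes 360 were higher and 577 lower by glmTreat, and 3171 and 3213 without the fold threshold. The median log2 fold change of all genes was -0.0052, with DESeq2 size factors -0.0061 and with upper-quartile normalization -0.04.

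Same-numbered samples share only a number (correlations of their deviations -0.09, 0.11 and -0.10). With the replicate number as a block, CRABP2 was at 1.92 and CYP26B1 at -2.13, and no call among the retinoic acid genes changed. Counts of at most 36 per library limit CRABP2, ALDH1A2 and, in KO cells, CYP26B1.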
